A study of Homo sapiens with 22 samples.

Results

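Imprinted genes are read from only 1 parental copy, and their levels were followed here in 11 B-cell lymphoma lines before and after a combined epigenetic drug treatment. The genes were taken from a list of 10 well-known imprinted genes: PHLDA2, PLAGL1, IGF2, H19, MEST, PEG3, PEG10, NDN, SNRPN and GRB10. Of these, 6 genes had an array element that names that gene alone, among 15461 genes named in this way on the array: PHLDA2, PLAGL1, IGF2, MEST, NDN and GRB10. IGF2 had 2 elements and the others 1 each, so that 7 of 32878 elements belong to the list. The elements for PEG3, which encodes a zinc finger protein, and for SNRPN, which encodes a spliceosomal Sm protein, each carry a second gene name as well (ZIM2 and SNURF), and their values are not given. No element is named for H19, a noncoding RNA neighbouring IGF2, or for PEG10, a gene derived from a retrotransposon.

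At an imprinted locus the 2 parental chromosomes differ in DNA methylation at a control region, a difference set in the germ line and copied by DNA methyltransferase DNMT1 with UHRF1 at each cell division. Many of the genes regulate fetal and placental growth, and loss of imprinting or silencing of the remaining active copy is known from several human cancers. The arrays measure RNA from both copies together, so the values below do not tell the copies apart, and DNA methylation was not measured in the files analysed.

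Every line was cultured for 72 h, once without drug and once with 5-aza-2′-deoxycytidine (aza, an inhibitor of DNA methyltransferases) followed by Trichostatin A (TSA, an inhibitor of histone deacetylases). Aza was given at 1 µM every 24 h and TSA at 0.5 µM for the last 12 h, and no culture received only 1 of the drugs. The lines were Raji, BL41 and Ramos (Burkitt lymphoma, BL), HLY-1, OciLy3 and OciLy10 (diffuse large B-cell lymphoma of the activated B-cell type, DLBCL ABC), SUDHL4 and SUDHL6 (DLBCL of the germinal centre type, DLBCL GCB), and K422, SC-1 and ROS50 (follicular lymphoma, FL). Each line therefore contributed 1 untreated and 1 aza/TSA array, 22 in all, and the 11 lines served as the replicates.

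All values are log2 of the quantile-normalized intensity, a scale on which every array has a median of 10.18 and a step of 1 is a doubling of signal. A gene is said to have risen or fallen where limma, fitted to all elements with the cell line as a block, gave a Benjamini-Hochberg adjusted p under 0.05. The SE of a difference is that of limma, which draws the variance of each element toward that of all elements. For genes with a wide spread it is therefore smaller than the plain SE of the differences. Of 6 B-cell markers measured, CD79A, CD79B, MS4A1, CD22 and CD37 averaged 14.93 to 16.65 in the untreated cultures, whereas PAX5 averaged 9.05. Those 5 markers fell with aza/TSA, to averages of 13.16 to 14.95, and 4 of 5 epithelial markers rose. The part of these shifts in the results below was not tested. The 6 arrays of SUDHL4, OciLy10 and HLY-1 were mostly dimmer before normalization, with an upper quartile of 2901 to 4547 intensity units against 4310 to 15058 on the other 16 arrays, and what is due to these arrays and what to these lines cannot be told apart.

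Promoter sequence is shown for 3 of the genes, because DNA methylation in human cells lies mainly on CG dinucleotides and the genes differ in how many their start sites hold. The windows are those of RefSeq on GRCh38.p14, from 250 bases before to 50 bases after an annotated start, written 5′ to 3′ on the strand of the gene, with each CG (which reads the same on both strands) in capitals. The table had windows for PLAGL1, MEST, NDN and GRB10, 4 of the 6 measured genes. PLAGL1 had 5 windows, and the ones with the most and the fewest CG are chr6:144008210-144008509 and chr6:143961363-143961662, both on the minus strand.
PLAGL1, most CG: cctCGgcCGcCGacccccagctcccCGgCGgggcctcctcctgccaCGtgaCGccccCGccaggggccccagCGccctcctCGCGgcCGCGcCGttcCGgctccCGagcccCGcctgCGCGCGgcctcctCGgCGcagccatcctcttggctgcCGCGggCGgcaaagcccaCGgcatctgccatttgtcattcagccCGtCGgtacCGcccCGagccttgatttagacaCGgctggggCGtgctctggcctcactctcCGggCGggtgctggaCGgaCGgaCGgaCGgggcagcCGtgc
PLAGL1, fewest CG: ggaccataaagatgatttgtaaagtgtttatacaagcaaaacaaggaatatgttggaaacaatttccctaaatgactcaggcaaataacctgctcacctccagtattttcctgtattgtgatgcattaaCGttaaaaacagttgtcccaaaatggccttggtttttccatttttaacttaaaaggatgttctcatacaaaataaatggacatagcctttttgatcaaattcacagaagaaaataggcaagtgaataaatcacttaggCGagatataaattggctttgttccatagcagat
The first holds 39 CG and the second 2. Among 35116 such windows the median was 14 CG, 8.7% held 39 or more and 89.0% held 2 or more. MEST also had 5 windows on the plus strand, of which the extremes are chr7:130491835-130492134 and chr7:130485925-130486224.
MEST, most CG: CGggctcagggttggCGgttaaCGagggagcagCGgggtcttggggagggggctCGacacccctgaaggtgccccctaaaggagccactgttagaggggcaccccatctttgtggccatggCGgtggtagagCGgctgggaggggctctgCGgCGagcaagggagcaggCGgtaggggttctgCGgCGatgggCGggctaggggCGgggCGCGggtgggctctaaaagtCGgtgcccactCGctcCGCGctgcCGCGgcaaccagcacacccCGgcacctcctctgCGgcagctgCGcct
MEST, fewest CG: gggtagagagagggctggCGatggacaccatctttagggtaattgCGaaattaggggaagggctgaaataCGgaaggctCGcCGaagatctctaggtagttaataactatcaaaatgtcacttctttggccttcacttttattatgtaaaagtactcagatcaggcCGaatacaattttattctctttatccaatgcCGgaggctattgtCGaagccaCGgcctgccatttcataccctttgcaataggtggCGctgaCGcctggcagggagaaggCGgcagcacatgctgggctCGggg
These hold 25 and 13 CG, and 51.7% of all windows held 13 or more. NDN had a single window, chr15:23687256-23687555 on the minus strand.
NDN: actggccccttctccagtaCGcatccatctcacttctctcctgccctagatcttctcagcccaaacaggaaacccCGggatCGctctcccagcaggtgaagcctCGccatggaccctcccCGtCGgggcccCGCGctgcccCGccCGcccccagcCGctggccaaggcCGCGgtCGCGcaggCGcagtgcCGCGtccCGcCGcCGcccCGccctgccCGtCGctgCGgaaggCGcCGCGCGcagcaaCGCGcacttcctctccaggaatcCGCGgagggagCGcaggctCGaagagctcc
It holds 35 CG, a number reached by 14.1% of windows. The 5 windows of GRB10 ranged from 49 to 3 CG. These counts describe the letters only, and the start that each line used was not measured.

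The first question was whether the imprinted genes moved with aza/TSA. PHLDA2 rose 4.84-fold on average and PLAGL1 fell 2.36-fold, while IGF2, MEST, NDN and GRB10 did not pass the test, with mean log2 differences of 0.08 to 0.56. Thus 1 of 6 genes rose and 1 fell, where 11.2% of all elements rose and 12.4% fell. The median difference was 0.46 over the 6 genes and -0.03 over all elements, and the former was 0.29 without OciLy10 and 0.26 without HLY-1, OciLy10 and SUDHL4. By a rule of at least 2-fold in at least 6 of the 11 lines, 1 gene was higher (PHLDA2) and 1 was lower (PLAGL1), against 6.52% and 5.80% of elements. Mean differences hide wide variation between lines, and the genes are described in turn.

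**Figure D1:**
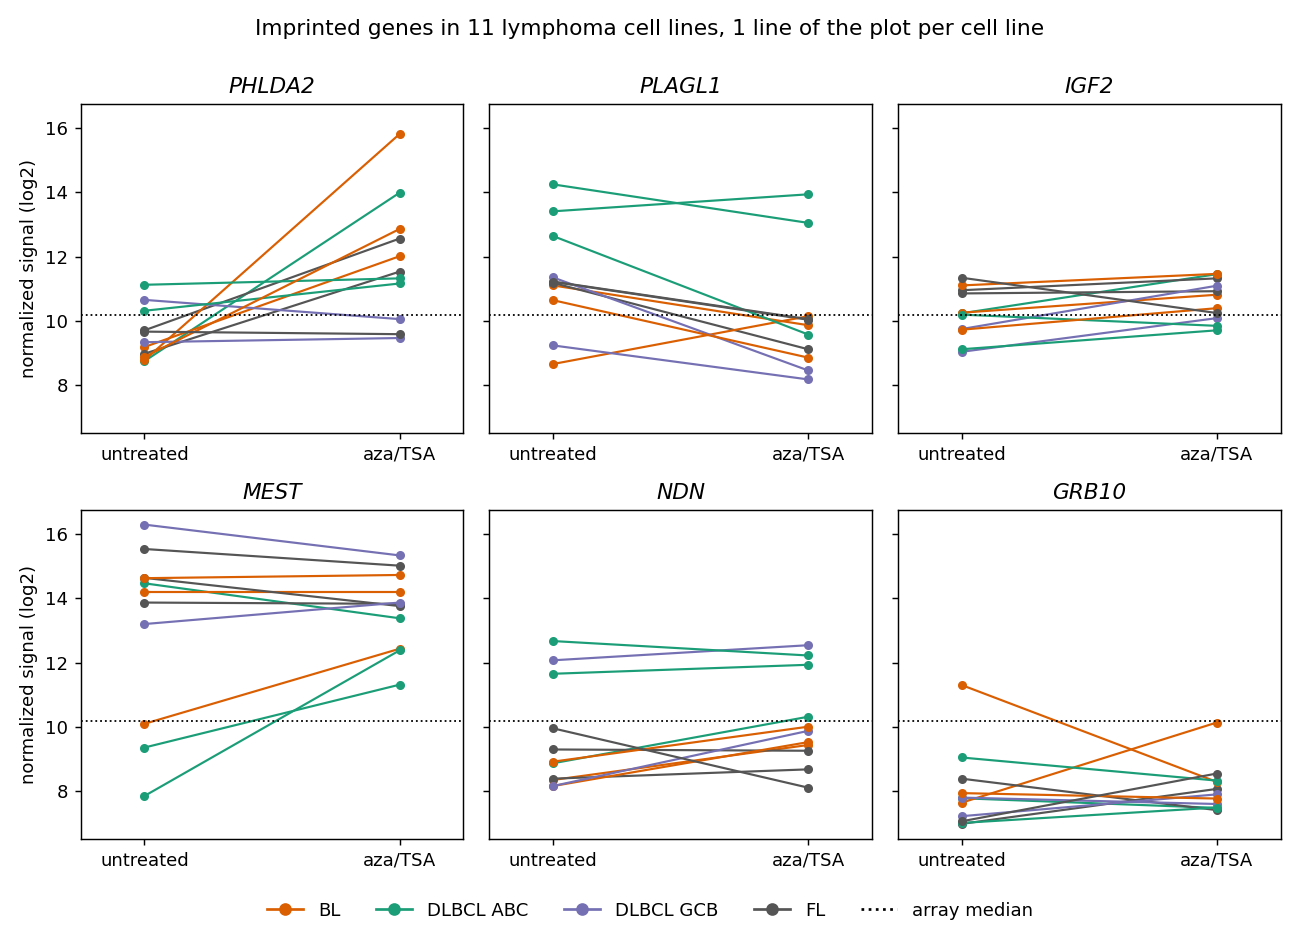
Log2 normalized intensity (vertical axis) of the 6 measured imprinted genes in untreated and aza/TSA cultures (horizontal axis), each line joining the 2 cultures of 1 cell line, coloured by lymphoma type, with the array median of 10.18 dotted. PHLDA2 climbs in most lines and PLAGL1 descends in 9 of 11, while the 3 lowest MEST lines move up toward the rest.

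PHLDA2, in the imprinted cluster at 11p15.5, encodes a small pleckstrin homology domain protein that limits placental growth and is expressed from the maternal copy. Its untreated level ran from 8.74 in OciLy3 through a median of 9.33 in SUDHL6 to 11.12 in OciLy10. After aza/TSA it ran from 9.46 in SUDHL6 through 11.53 in K422 to 15.82 in Raji. Untreated cultures were thus mostly below the array median, with 3 of 11 above it, whereas 8 of 11 treated cultures were above, although the 2 groups overlapped. The means were 9.57 ± 0.81 and 11.85 ± 1.92 (SD, n = 11), a difference of 2.28 ± 0.64 (SE) with an adjusted p of 0.0187 in limma. In bulk RNA such as this, more cells with the transcript and more transcript per cell cannot be told apart, nor can fewer cells and less transcript per cell where a gene fell.

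The response of PHLDA2 was unequal between lines. Raji, a Burkitt line, went from 8.77 to 15.82, which is 132-fold, OciLy3 went from 8.74 to 13.99 (38.0-fold), and BL41 from 8.87 to 12.86 (15.9-fold). Their untreated levels were close to the 25th percentile of all values, 8.73, so these folds start from a dim signal. SC-1, Ramos and K422 gained 2.86, 2.83 and 2.56. HLY-1 gained 0.86, OciLy10 0.20 and SUDHL6 0.13, while ROS50 differed by -0.09 and SUDHL4 by -0.60. Both germinal centre DLBCL lines are therefore among those with little or no gain, and all 3 Burkitt lines are among those that gained most. The SD of the 11 differences, 2.45, was larger than that of 99.8% of elements. Leaving out any 1 line kept the difference between 1.80 and 2.56, with adjusted p of 0.0115 to 0.0435, and it was 3.07 without HLY-1, OciLy10 and SUDHL4.

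The untreated level of PHLDA2 was also highest in those 3 dim-array lines, at 10.31 to 11.12 against 8.74 to 9.70 in the other 8. Before normalization the order was the same, at 829 to 1348 against 454 to 790 intensity units. Of all elements, 1.81% had these 3 lines above the other 8 when untreated. The mean difference with aza/TSA was 0.15 in the 3 lines and 3.07 in the other 8, a contrast that was not tested.

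None of the 4 nearest measured neighbours of PHLDA2 rose. NAP1L4, which encodes a nucleosome assembly protein, differed by -0.04 (adjusted p = 0.911) and the transporter gene SLC67A1, imprinted as well, by -0.02 (adjusted p = 0.971). CARS1, the cysteinyl-tRNA synthetase gene, fell by 0.68 (adjusted p = 0.0136), and the antisense transcript SLC67A1-AS differed by 0.50 (adjusted p = 0.135). CDKN1C, a cyclin-dependent kinase inhibitor gene of this cluster that is likewise expressed from the maternal copy, rose by 1.16 ± 0.40 (adjusted p = 0.049), but did not pass without HLY-1, OciLy10 and SUDHL4 (0.87; adjusted p = 0.253) or without the cell line block (adjusted p = 0.0609). Over the 22 arrays the genes most like PHLDA2 were DEPDC7 (Pearson r = 0.839) and NEFM (r = 0.831). In this description the arrays differ in both treatment and cell line, and what each adds to r was not tested.

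PLAGL1, at 6q24, encodes a zinc finger transcription factor with growth-arrest activity and is expressed from the paternal copy in most tissues. Its untreated level ran from 8.65 in Raji through 11.21 in SC-1 to 14.25 in HLY-1. With aza/TSA it ran from 8.17 in SUDHL6 through 9.86 in Ramos to 13.94 in OciLy3. The groups overlapped, but 9 of 11 untreated cultures lay above the array median and only OciLy3 and HLY-1 did so after treatment. The means were 11.35 ± 1.64 and 10.11 ± 1.81 (SD, n = 11), a difference of -1.24 ± 0.36 (SE) with an adjusted p of 0.0219 in limma. PLAGL1 thus moved opposite to PHLDA2.

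In 9 lines PLAGL1 was lower by 2-fold or more. OciLy10 differed by -3.07 (12.64 to 9.57), SUDHL4 by -2.89 (11.35 to 8.45) and K422 by -2.07 (11.18 to 9.11). BL41 differed by -1.79, and Ramos, HLY-1, SC-1, ROS50 and SUDHL6 by -1.24 to -1.05. The exceptions were Raji, the lowest untreated line, which went up by 1.49 (8.65 to 10.14), and OciLy3, which went up by 0.53 from a high level of 13.41. Without HLY-1, OciLy10 and SUDHL4 the difference was -0.81 and no longer passed (adjusted p = 0.164). Leaving out 1 line at a time gave -1.51 to -1.06, each of which passed.

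On the normalized scale, untreated PLAGL1 separated the activated B-cell DLBCL lines from the others. OciLy10, OciLy3 and HLY-1 were at 12.64, 13.41 and 14.25, and the other 8 lines were at 8.65 to 11.35. The groups did not overlap, as was so for 1.37% of elements. Before normalization they did overlap, as K422 read 3900 intensity units and OciLy10 3591. OciLy10 and HLY-1 are among the lines with dim arrays, and only OciLy3 and OciLy10 were grown in IMDM medium. The part of either in this separation was not tested. The mean was 13.43 ± 0.80 in DLBCL ABC (SD, n = 3), 11.20 ± 0.02 in FL (n = 3) and 10.13 ± 1.30 in BL (n = 3), and the DLBCL GCB lines SUDHL6 and SUDHL4 were at 9.23 and 11.35. A limma F-test over the 4 types gave an unadjusted p of 0.00302 and an adjusted p of 0.334, so the separation did not pass. After aza/TSA OciLy10 was at 9.57 and no longer stood above the other types.

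The genes beside PLAGL1 moved in both directions. LTV1, a ribosome biogenesis gene, fell by 0.93 (adjusted p = 0.000361), and SF3B5, a splicing factor gene, rose by 0.66 (adjusted p = 0.00836). PHACTR2 differed by -0.61 (adjusted p = 0.452) and STX11 by -0.42 (adjusted p = 0.518). The genes most like PLAGL1 over the 22 arrays were NUP50 (r = 0.812) and ZNF330 (r = 0.797), with the same limit as above.

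**Figure D2:**
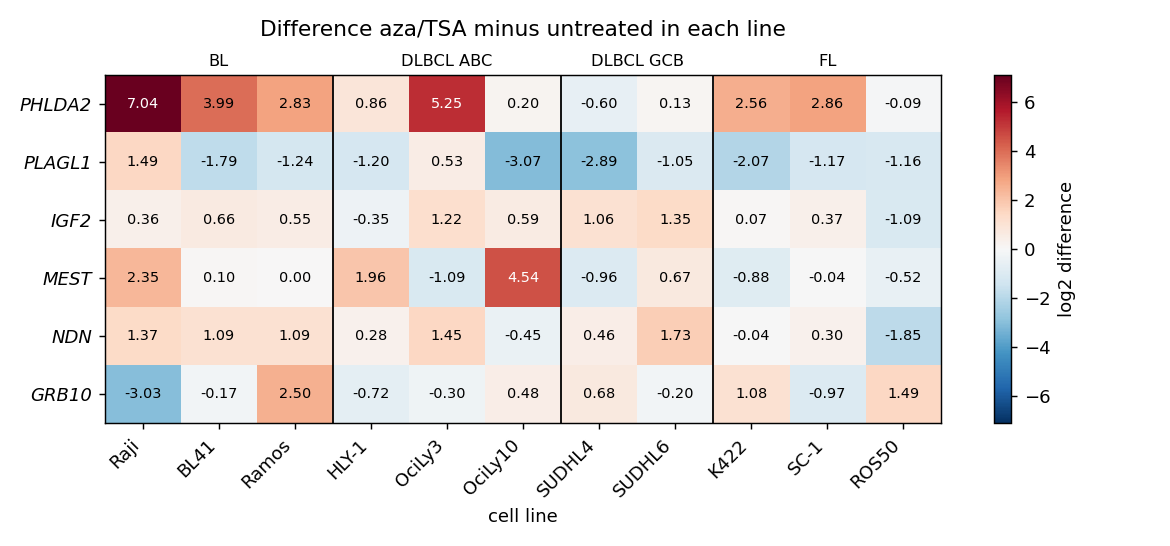
Log2 difference, aza/TSA minus untreated (colour and printed value), of each measured imprinted gene (rows, IGF2 by the element with the higher mean) in each cell line (columns). PHLDA2 is strongly positive in Raji and OciLy3, and PLAGL1 is negative in 9 lines.

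IGF2, insulin-like growth factor 2, is a fetal growth factor at 11p15.5 expressed from the paternal copy. Its brighter element read 9.03 in SUDHL4, 10.23 at the median in OciLy3 and 11.34 in ROS50 when untreated. With aza/TSA it read 9.70 in OciLy10, 10.81 at the median in Ramos and 11.46 in Raji. These groups overlapped widely and kept close to the array median. The means were 10.23 ± 0.78 and 10.66 ± 0.64 (SD, n = 11), a difference of 0.44 ± 0.21 (SE; adjusted p = 0.168, limma). It was higher in 9 lines, at most by 1.35 in SUDHL6, and lower in HLY-1 (-0.35) and ROS50 (-1.09). Without ROS50 the difference was 0.59 and passed (adjusted p = 0.0311).

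The second IGF2 element gave another picture. It was at 7.75 to 8.69 in 10 untreated lines, below the array median, and at 13.07 in HLY-1. With aza/TSA it reached 19.20 in HLY-1, a 69.9-fold difference from 5533 to 203600 intensity units before normalization, and was at 7.31 to 11.04 elsewhere. HLY-1 alone was thus above the array median when untreated, and BL41 (11.04) and OciLy3 (10.54) joined it after treatment. On the treated HLY-1 array the element was brighter than 98.7% of all elements, and 14 elements rose more in this line. Only 0.113% of elements had untreated HLY-1 above every other line by as much as the 4.38 seen here.

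Other lines with at least 2-fold higher signal of this element were BL41 (3.12), OciLy3 (2.46), OciLy10 (1.99), K422 (1.49) and Raji (1.02). The remaining 5 lines differed by -0.87 to 0.00. The mean difference of 1.26 ± 0.56 (SE; adjusted p = 0.127) did not pass, nor did 0.78 ± 0.40 without HLY-1 (adjusted p = 0.204). In HLY-1 the brighter element read 10.19 and 9.84 and so did not follow. Both elements are annotated to IGF2, and which transcripts each detects was not tested.

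**Figure D3:**
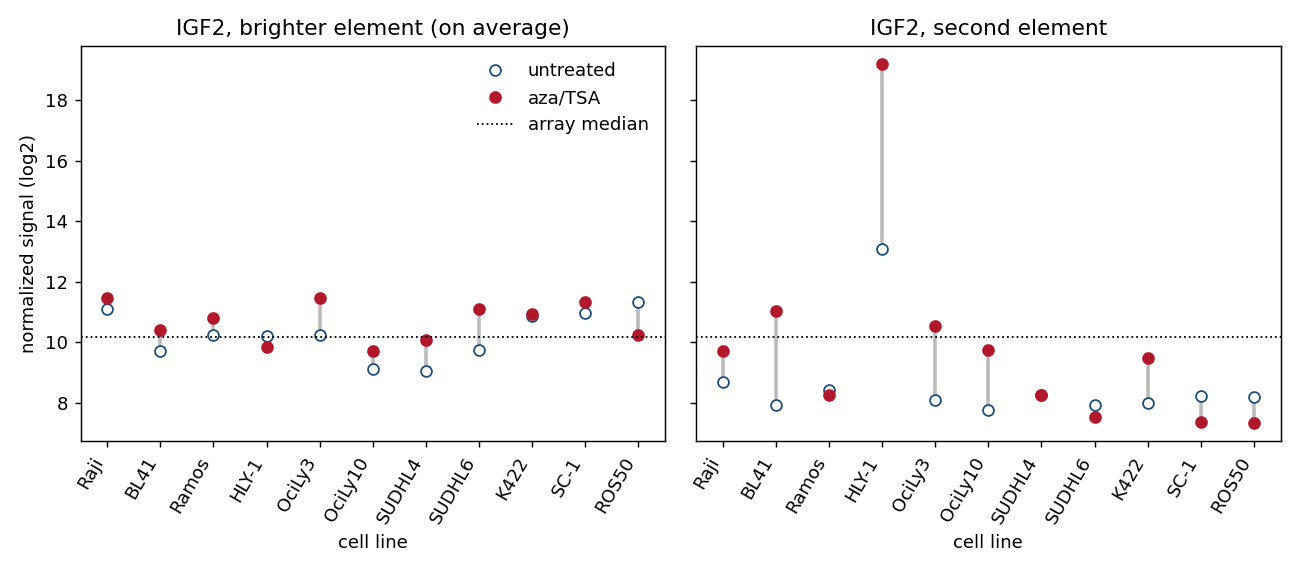
Log2 normalized intensity of the 2 IGF2 elements in each cell line, untreated (open) and aza/TSA (filled). The elements disagree most in HLY-1, where the second one stands at 13.07 and 19.20 and the first at 10.19 and 9.84.

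The genes around IGF2 gave no shared direction. MRPL23, a mitochondrial ribosomal protein gene, fell by 0.89 (adjusted p = 0.00412), whereas INS, the insulin gene next to IGF2, differed by -0.30 (adjusted p = 0.536), TH by 0.26 (adjusted p = 0.562) and TNNT3 by 0.39 (adjusted p = 0.449).

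MEST, also called PEG1, lies at 7q32, encodes a protein of the alpha/beta hydrolase fold family, and is listed as expressed from the paternal copy. Its element is annotated to several transcripts, and which copy the lines express was not measured. Untreated cultures ran from 7.84 in OciLy10 through 14.21 in Ramos to 16.30 in SUDHL4. This span of 8.46, or 351-fold, is wide, and the SD of 2.75 exceeded that of 99.4% of elements. OciLy10, HLY-1 (9.35) and Raji (10.09) were below the array median, and the other 8 lines were at 13.20 or higher. MEST therefore appeared as either low or high in untreated lines.

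With aza/TSA MEST ran from 11.31 in HLY-1 through 13.83 in SC-1 to 15.34 in SUDHL4, a span of 4.03, or 16.3-fold, and all 11 cultures were above the array median. OciLy10 went from 7.84 to 12.38, Raji from 10.09 to 12.43 and HLY-1 from 9.35 to 11.31, differences of 4.54, 2.35 and 1.96. The other 8 lines differed by -1.09 in OciLy3 to 0.67 in SUDHL6. The mean difference was 0.56 ± 0.46 (SE, n = 11; adjusted p = 0.445, limma), from 13.10 ± 2.75 to 13.66 ± 1.22 (SD). The groups overlapped and the mean did not pass the test. It was 0.16 without OciLy10 and 0.07 without HLY-1, OciLy10 and SUDHL4.

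Next to MEST, CEP41, a centrosomal protein gene, fell by 0.68 (adjusted p = 0.0111). COPG2, a coatomer subunit gene, differed by 0.10 (adjusted p = 0.736), TSGA13 by -0.10 (adjusted p = 0.718) and CPA1 by 0.18 (adjusted p = 0.668).

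NDN encodes necdin, a MAGE family protein with growth-suppressing activity, and lies at 15q11-q13 among the paternally expressed genes lost in Prader-Willi syndrome. It was at 8.15 in SUDHL6 and Raji, 8.91 at the median in BL41 and 12.67 in OciLy10 when untreated. With aza/TSA it was at 8.10 in ROS50, 9.87 at the median in SUDHL6 and 12.54 in SUDHL4. In both conditions OciLy10, SUDHL4 and HLY-1 were above the array median and above all other lines, at 11.65 to 12.67 against 8.15 to 9.95 when untreated. Before normalization they read 2070 to 3650 against 224 to 751 intensity units. Of all elements, 1.81% showed this separation untreated and 2.09% after treatment, and these are the 3 lines with dim arrays.

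The mean of NDN was 9.67 ± 1.68 untreated and 10.17 ± 1.46 treated (SD, n = 11), a difference of 0.49 ± 0.29 (SE; adjusted p = 0.259, limma). It was at least 2-fold higher in 5 lines, SUDHL6 (1.73), OciLy3 (1.45), Raji (1.37), Ramos (1.09) and BL41 (1.09), and lower by that much in ROS50 (-1.85). Without ROS50 the difference was 0.73 and passed (adjusted p = 0.0327). Like NDN, the other measured genes of the region that are expressed from the paternal copy had means below the array median. Untreated MAGEL2 averaged 10.08, above the 9.67 of NDN. MKRN3 differed by -0.41 (adjusted p = 0.161), MAGEL2 by -0.19 (adjusted p = 0.496) and NPAP1 by 0.51 (adjusted p = 0.256). UBE3A, the ubiquitin ligase gene read from the maternal copy in neurons, fell by 0.81 (adjusted p = 0.000958) and was lower in 11 of 11 lines.

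GRB10, at 7p12, encodes an adaptor that dampens signalling of the insulin and insulin-like growth factor receptors, and its expressed copy depends on tissue. It ran from 6.97 in K422 through 7.77 in OciLy3 to 11.30 in Raji when untreated, and from 7.40 in SC-1 through 7.89 in SUDHL4 to 10.13 in Ramos with aza/TSA. All but untreated Raji lay below the array median. Raji differed by -3.03 and Ramos by 2.50, with ROS50 (1.49) and K422 (1.08) the other lines at least 2-fold higher. The mean difference was 0.08 ± 0.39 (SE, n = 11; adjusted p = 0.919, limma), from 8.01 ± 1.26 to 8.08 ± 0.78 (SD), and it turned to -0.17 without Ramos, -0.06 without ROS50 and -0.02 without K422.

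Its neighbours, the AAA ATPase gene FIGNL1 (0.44, adjusted p = 0.0764), the decarboxylase gene DDC (-0.01, adjusted p = 0.981), POM121L12 (-0.35, adjusted p = 0.435) and VSTM2A (0.26, adjusted p = 0.402), did not pass either.

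The lines differed in which imprinted genes moved. In Raji 4 of the 6 genes were at least 2-fold higher (PHLDA2, PLAGL1, MEST and NDN) and GRB10 was lower, while 13.4% of all elements on that pair were higher and 14.2% lower by that much. OciLy3 (PHLDA2, IGF2 and NDN) and Ramos (PHLDA2, NDN and GRB10) had 3 higher genes each, where 14% and 15.7% of elements were higher. ROS50 was the only line with 3 lower genes, PLAGL1, IGF2 and NDN, against 16.2% of elements. The other 7 lines had 1 or 2 higher genes and 1 lower gene each, with 12.0% to 17.0% of elements higher and 12.0% to 18.0% lower. Elements at least 2-fold higher in some line and lower in another were common, 40.3% of the array.

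The median SD of the differences was 1.39 over the 6 genes and 0.82 over all elements. MEST (SD 1.74, above 97.9% of elements), GRB10 (1.45, above 93.5%) and PLAGL1 (1.33, above 89.5%) varied widely beside PHLDA2, NDN (1.03) less so, and IGF2 least (0.71, above 39.0%). GRB10 was below the array median on every array but that of untreated Raji. How much of its spread is noise of a dim signal was not tested.

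The study grouped the lines by lymphoma type, which allows the response to be compared between types. For PHLDA2 the mean difference was 4.62 ± 2.18 in BL, 2.10 ± 2.74 in DLBCL ABC, 1.78 ± 1.62 in FL (SD, n = 3 each) and -0.23 ± 0.52 in DLBCL GCB (n = 2). The limma F-test gave an adjusted p of 0.773. For NDN it was 1.18 ± 0.16 in BL and -0.53 ± 1.16 in FL, with an adjusted p of 0.800 over the 4 types. None of the 6 genes passed, and 0 of them had an unadjusted p under 0.05, while 0 of 32878 elements passed and 2141 had such a p. IGF2 is counted here by its brighter element. Its second element gave an unadjusted p of 0.0353 and an adjusted p of 0.744 in the same F-test. For untreated levels none of the 6 passed and 2 (PLAGL1 and IGF2) had an unadjusted p under 0.05, while 0.0973% of elements passed and 2223 of 32878 had such a p.

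A list of 46 further imprinted genes, of which 38 were measured, places these values beside the wider class. Of these, 8 rose, 4 fell and 26 did not pass, with a median difference of 0.00, beside 11.2% of all elements that rose and 12.4% that fell. The largest rises were those of INPP5F, a phosphoinositide phosphatase gene (2.59 ± 0.21, SE; adjusted p = 2.01e-06), NLRP2, of the NOD-like receptor family (2.29 ± 0.36; adjusted p = 0.000336), and IGF2R, the receptor that clears IGF2 (2.03 ± 0.24; adjusted p = 3.45e-05). FAM50B rose by 1.83 ± 0.44 (adjusted p = 0.00715) and BLCAP by 1.28 ± 0.28 (adjusted p = 0.00409). INPP5F was 2-fold or more higher in each of the 11 lines, with every treated array above every untreated one, as held for 0 of the 6 genes above and 0.627% of elements. PHLDA2 had a mean rise close to that of NLRP2, but its SE of 0.64 was larger than that of any of these.

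The 4 that fell were UBE3A, SGCE, a sarcoglycan gene beside PEG10 (-0.78; adjusted p = 0.0154), OSBPL5, an oxysterol-binding protein gene of the PHLDA2 cluster (-0.62; adjusted p = 0.0366), and NAA60 (-0.48; adjusted p = 0.0265). OSBPL5 was dim and not detected, with 2 untreated and 0 treated arrays above the array median. RB1 (0.02), SLC67A1, TRAPPC9 (-0.02) and COPG2 were detected and differed least. Of 14 genes listed as expressed from the paternal copy 3 rose and 1 fell, and of 15 from the maternal copy 3 rose and 3 fell. Of 9 listed as having an expressed copy that depends on tissue, isoform or person, 2 rose and 0 fell. The medians were 0.27, -0.15 and 0.02, with the same shares of all elements for comparison. The list counts UBE3A as maternal, although that copy was named above for neurons, and the copy expressed in these lines was not measured. Without HLY-1, OciLy10 and SUDHL4, 6 rose and 2 fell, and CDKN1C, FAM50B, OSBPL5 and NAA60 did not pass.

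**Figure D4:**
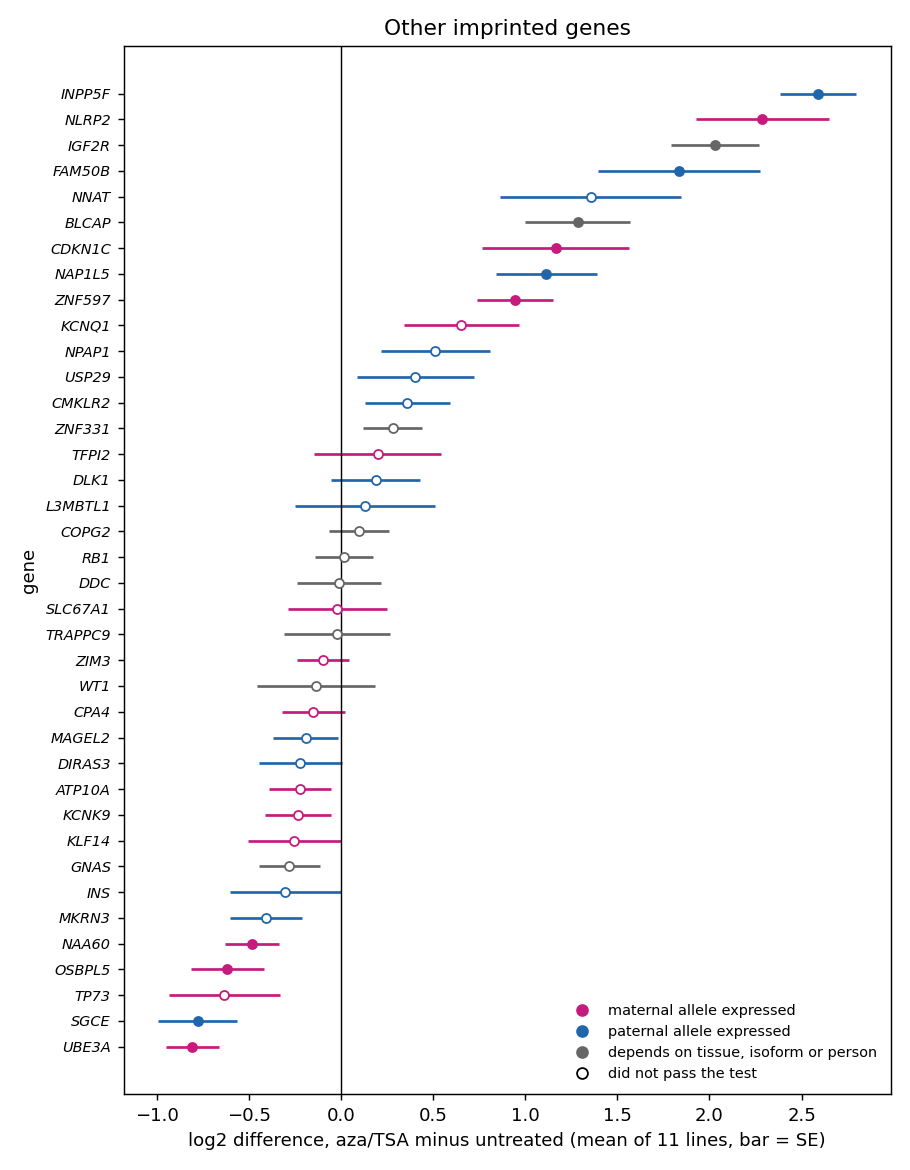
Mean log2 difference, aza/TSA minus untreated, with its SE from limma over 11 lines, of 38 further imprinted genes, coloured by the copy listed as expressed. Open symbols did not pass the adjusted p. INPP5F, NLRP2 and IGF2R lie above 2 and most genes lie near 0.

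The genes that maintain imprints were compared as well. DNMT1, which copies methylation and is the target of aza, fell by 0.59 (adjusted p = 0.019) and its partner UHRF1 fell by 0.58 (adjusted p = 0.019), but neither passed without HLY-1, OciLy10 and SUDHL4. CTCF, the insulator protein that binds the control region between H19 and IGF2, fell by 1.73 (adjusted p = 2.77e-06) with each of the 11 lines at least 2-fold lower, and the de novo methyltransferase gene DNMT3B rose by 1.72 (adjusted p = 0.00149). Of 10 genes measured in this list 2 rose and 5 fell, with a median of -0.50, where 11.2% of all elements rose and 12.4% fell. Without those 3 lines 1 rose and 2 fell, as DPPA3 and DNMT3L did not pass either. Around IGF2 and GRB10, 1 of 15 measured genes of the insulin-like growth factor axis rose (IGF2R) and 3 fell, counts to be read against the same shares of all elements. IGF2BP1, an RNA-binding protein gene, had the largest fall (-1.75; adjusted p = 0.00898), and IGF1R, the receptor gene, differed by -0.68 (adjusted p = 0.143).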

How the data were processed

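RNA from 22 cultures (11 lines, untreated and aza/TSA) was hybridised to 1-colour Applied Biosystems arrays. The deposited tables hold the scanner intensity of each element before normalization and the quantile-normalized log2 values made by the authors. Applying quantile normalization and log2 to the deposited intensity gave the deposited log2 values to within 5e-09. Elements were named from the platform annotation: 17073 have 1 gene symbol, 139 several and 15666 none. A gene with several elements was represented by the one with the highest mean, and 0 value columns were unmapped.

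Groups were taken from the treatment labels, pairs from the cell line labels and lymphoma types from the study. Paired differences were fitted over all 32878 elements in R 4.3.3 by limma 3.58.1 (functions lmFit and eBayes, cell line as block, two-sided, Benjamini-Hochberg at 0.05), and types were compared by its F-test. Nothing was filtered on low values. A gene was called detected if 6 or more arrays of its brighter group exceeded their median. The lines are separate cultures, with 1 per condition, so spread within a line was not measured. Precision of the paired differences therefore rests on the number of lines and not on the number of arrays.

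The line pairs the arrays: the deviations of the 2 arrays of a line correlated at 0.361 to 0.585, those of different lines at 0.18 at most. The scripts were tested on simulated data. All listed genes were described. Of further imprinted genes, the named ones were up to 5 per direction with the largest changes among those that passed and the 4 detected genes with the smallest change, with the 2 neighbours on each side and, for genes that passed, the 2 most correlated genes. Of each partner list the largest change per direction among genes that passed was named, with DNMT1, UHRF1, IGF1R, IGF2R and SNRPB. Neighbours of genes that did not pass, and CDKN1C, were added after the values were seen. Genes and lists were chosen with earlier results of these data known. Alternatives were other normalizations, an intensity floor, no block, leaving out lines, and other fold limits.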

Additional observations from a re-analysis of the deposited data

Results flagged for a closer look

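On the normalized scale, MEST differed in direction between 2 lymphoma types: all 3 Burkitt lines were higher with aza/TSA and all 3 follicular lymphoma lines were lower. Raji differed by 2.35, BL41 by 0.10 and Ramos by 0.00 on the log2 scale, and SC-1 by -0.04, ROS50 by -0.52 and K422 by -0.88. The type means, 0.82 ± 1.33 and -0.48 ± 0.42 (SD, n = 3 each), lay 1.30 apart. The difference between these 2 types was not tested, and the F-test over all 4 types gave an adjusted p of 0.845 in limma. Ramos, BL41 and SC-1 were all within 0.10 of no change, and their direction was the reverse before normalization. In intensity units Ramos went from 29830 to 18650, BL41 from 23900 to 16080 and SC-1 from 12190 to 16030. Raji, ROS50 and K422 kept their direction.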

How the results depend on the processing

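PHLDA2 passed in the same direction under all 21 alternatives (1.80 to 3.07; adjusted p 0.00711 to 0.0435), and PLAGL1 under 19 of 21 (-1.51 to -0.81). Some alternatives could not change these differences. Recomputed quantile normalization repeats the deposited values, and averaging the elements of a gene leaves PHLDA2 and PLAGL1 as they are, with 1 element each. Without the replicate block (cell line) PLAGL1 stayed at -1.24 but did not pass (adjusted p = 0.279), so that 0 of the 6 genes fell, and 0 fell without HLY-1, OciLy10 and SUDHL4. Leaving out 1 line at a time, 1 to 3 of the 6 rose, with 3 only without ROS50. GRB10 turned to -0.14 with a floor at the 25th percentile, and ranged from -0.17 to 0.39 when 1 line was left out (-0.17 without Ramos, -0.02 without K422, -0.06 without ROS50). At least 2-fold higher in at least 5 lines held for 2 of the 6 genes (PHLDA2 and NDN; 9.02% of elements) and in at least 7 lines for 0 (4.79%), and 3-fold lower in at least 6 lines for 0 (1.65%). Of the further imprinted genes 5 rose and 1 fell without the block, 1 fell in the lines in RPMI medium, 2 fell without HLY-1, OciLy10 and SUDHL4, and 2 to 4 fell when 1 line was left out (2 without SC-1, K422, SUDHL6 or OciLy10). Over all elements 3674 rose and 4064 fell, against 2059 and 2136 without the block and 2603 and 5637 with median scaling, which put the median of all elements at -0.15 and that of the 6 genes at 0.29, from 0.46. That median was 0.29 to 0.63 when 1 line was left out. None of the 6 genes passed between types under any of 16 alternatives (lowest adjusted p 0.616 for differences and 0.224 for untreated levels). The causes were not tested. A fit of detected elements alone held 4 of the 6 genes, without NDN and GRB10. PHLDA2 entered it only through its treated arrays (8 above the array median, against 3 untreated). PLAGL1 entered it only through its untreated arrays (9, against 2 treated). That fit is therefore no separate support for either change.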

Other observations

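SNRPN itself was not read by an element of its own, but the 7 common Sm proteins of the spliceosome core, among which it can take the place of SNRPB, were all measured. Of these 0 rose and 4 fell, where 11.2% of all elements rose and 12.4% fell. SNRPD1 had the largest fall (-0.97; adjusted p = 5.81e-05, limma) and SNRPB, the closest relative of SNRPN, fell by 0.81 (adjusted p = 0.000434). The median was -0.52, against -0.03 over all elements, and 2 of the 7 fell without HLY-1, OciLy10 and SUDHL4.

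The sequence relatives of the imprinted genes gave no call in either direction, with 9 of 10 measured and a median of -0.13. PHLDA1 and PHLDA3, relatives of PHLDA2, differed by -0.65 (adjusted p = 0.336, limma) and -0.70 (adjusted p = 0.262), and PLAGL2 and PLAG1, relatives of PLAGL1, by -0.13 and 0.52. These 4 were named after their values were seen.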
